A study of Mus musculus with 12 samples.

Results

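The 7 genes described here read lower after estradiol in these bone marrow cultures: Txnip, Frat2, Ttc30a1, Zscan22, Zfp87, Zfp623 and the pseudogene Hmga2-ps1. They were selected on the measured log2 difference of estradiol minus control, as lower genes of smallest p in either or both cell fractions. Their differences with estradiol are therefore given as descriptions, without a test. They are 7 of 18193 genes and are read by 9 of the 34945 probe sets that name 1 gene each. Expression was measured on 12 Affymetrix arrays as log2 values, 3 arrays for each of 4 groups. The groups cross a c-kit+ and a CD44+ fraction with a control culture, for which no vehicle is named, and a culture given 17β-estradiol (17βE), a main estrogen of the blood, at 1 nM for 1 week. All cells came from primary cultures of whole bone marrow of female C57BL/6 mice aged 6 weeks. The labels call the c-kit+ cells stem cells and the CD44+ cells stromal cells. They are silent on how the fractions were separated, on pooling of animals and on whether replicates are independent cultures, so p-values here reflect the spread among these arrays, which may be technical.

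The 7 genes do not form a single pathway. Txnip encodes an α-arrestin that binds and restrains thioredoxin and limits glucose uptake, and its transcription follows the glucose supply of the cell. Frat2 encodes a protein that binds the kinase GSK-3 and can keep it from marking β-catenin for destruction in Wnt signalling. Ttc30a1 encodes a tetratricopeptide protein of the complex that carries cargo along the primary cilium (intraflagellar transport). Zscan22, Zfp87 and Zfp623 encode zinc finger proteins of the C2H2 type, a very large family of DNA-binding proteins, and Hmga2-ps1 is a transcribed pseudogene of Hmga2, which encodes a chromatin protein that binds AT-rich DNA.

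The promoters of 4 of the genes were available from RefSeq (build GRCm38.p6) and are shown because members that read lower together invite a look at their start sites. Each window holds 300 bases, 250 before the annotated start and 50 from it on, written 5′ to 3′ on the strand of the gene, and capitals mark matches to the motifs searched. The windows are chr3:96557707-96558006 on the plus strand for Txnip, chr19:41848083-41848382 on the minus strand for Frat2, chr2:75981918-75982217 on the minus strand for Ttc30a1 and chr7:12897559-12897858 on the plus strand for Zscan22.
Txnip: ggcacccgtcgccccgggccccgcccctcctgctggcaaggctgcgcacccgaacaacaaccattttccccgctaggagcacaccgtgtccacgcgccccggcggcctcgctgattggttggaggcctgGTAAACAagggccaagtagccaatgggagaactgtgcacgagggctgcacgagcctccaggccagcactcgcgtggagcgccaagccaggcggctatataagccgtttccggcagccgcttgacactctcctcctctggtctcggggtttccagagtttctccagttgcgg
Frat2: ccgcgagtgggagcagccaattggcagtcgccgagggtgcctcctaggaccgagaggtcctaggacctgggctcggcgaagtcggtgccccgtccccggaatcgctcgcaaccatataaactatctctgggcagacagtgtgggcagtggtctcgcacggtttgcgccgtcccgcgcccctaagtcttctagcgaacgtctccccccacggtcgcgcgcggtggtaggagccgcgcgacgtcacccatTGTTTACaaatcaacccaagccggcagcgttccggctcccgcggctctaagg
Ttc30a1: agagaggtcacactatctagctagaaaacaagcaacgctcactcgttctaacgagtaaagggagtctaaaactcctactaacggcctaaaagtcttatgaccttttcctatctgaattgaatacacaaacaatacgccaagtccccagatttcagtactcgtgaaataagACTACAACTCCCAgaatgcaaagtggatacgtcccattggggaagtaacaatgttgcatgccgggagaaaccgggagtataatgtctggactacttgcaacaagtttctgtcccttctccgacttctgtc
Zscan22: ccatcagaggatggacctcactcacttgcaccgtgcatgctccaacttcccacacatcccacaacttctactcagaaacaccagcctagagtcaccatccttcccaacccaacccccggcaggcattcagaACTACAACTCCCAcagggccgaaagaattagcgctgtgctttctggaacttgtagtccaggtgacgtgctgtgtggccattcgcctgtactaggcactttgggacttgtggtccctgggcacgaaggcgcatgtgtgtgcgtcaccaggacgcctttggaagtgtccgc

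Both strands of these windows were searched for 3 known motifs and for the longest run of letters that any 2 of the windows share. GTAAACA, the core bound by forkhead factors, was found in Txnip (bases 130 to 136 of the window) and in Frat2 (bases 249 to 255, on the opposite strand), and 3.65% of 32851 promoter windows hold it. The longest shared run, ACTACAACTCCCA, has 13 bases and lies in Ttc30a1 (bases 171 to 183) and in Zscan22 (bases 132 to 144). It was taken from these sequences themselves, and 0.317% of all windows hold it. The E-box CACGTG, present in 7.15% of all windows, and the palindromic estrogen response element, present in 0.07%, were not found in these 4 windows. Variants of these motifs were not searched for. None of the matches overlap, and a match is a description of the sequence.

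The fractions were checked against their markers. Kit, the gene that names the c-kit+ fraction, averaged 3.97 in c-kit+ control and 4.01 in CD44+ control arrays, close to the background, and did not pass between the fractions (log2 difference -0.01, adjusted p = 0.967 by limma, the linear model with moderated variances used throughout). Background was read from Y-linked genes in these female cells, for which 12 of 13 probe sets lay between 2.76 and 4.54, and the other, a Sry probe set whose name ends in _x_at, averaged 6.22. Cd44, the gene that names the other fraction, was high in both and did not pass either (log2 -0.19, adjusted p = 0.349). Of the c-kit+ marker list (6 genes), which averaged 5.03 to 5.68 on c-kit+ and 5.35 to 5.61 on CD44+ arrays, Cd34 passed and was higher in CD44+ cells (-1.35, adjusted p = 0.00237). The stromal marker list (8 genes) averaged 6.34 to 7.19 on c-kit+ arrays and 7.94 to 9.25 on CD44+ arrays. Its members Col1a1, Col1a2, Col3a1, Pdgfra, Pdgfrb and Cxcl12 were higher in CD44+ cells, and Cd44 and Lepr (-0.06, adjusted p = 0.782) did not pass. The macrophage list (Cd14, Csf1r, Adgre1, Lyz2, Cd68 and Itgam) was high in both fractions, from 12.21 to 12.72. The neutrophil list averaged 4.50 to 4.84 on c-kit+ and 4.90 to 5.50 on CD44+ arrays. Its members S100a9 (adjusted p = 0.0296) and Ngp (adjusted p = 0.0338) were higher in CD44+ cells by limma. The group means of S100a9 ran from 3.83 to 4.43, within the background range. Lymphoid, erythroid and endothelial lists lay between 4.12 and 4.49 on all arrays. Within each fraction the ranges of the stromal and macrophage lists on control and estradiol arrays overlapped, and their part in the results was not tested.

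Txnip is read by 2 probe sets, of which the one with the higher mean was used in the fits. In c-kit+ cells it read 10.38, 10.56 and 10.56 on control arrays and 9.81, 9.67 and 9.44 on estradiol arrays. In CD44+ cells it read 10.23, 10.25 and 9.74 on control arrays and 9.62, 9.24 and 9.27 on estradiol arrays. All 3 estradiol arrays lay below all 3 control arrays in both fractions, although CD44+ control replicate 3 (9.74) came close to estradiol replicate 1 (9.62). The log2 difference of estradiol minus control was -0.86 (SE 0.16, n = 3 against 3, 1.82-fold lower) in c-kit+ cells and -0.69 (SE 0.16, 1.62-fold lower) in CD44+ cells, where SE is the moderated standard error. The second Txnip probe set, much nearer to background, read 5.09, 5.22 and 5.84 in c-kit+ control and 5.05, 4.98 and 5.35 in c-kit+ estradiol arrays, and these overlap. In CD44+ cells it read 5.56, 5.58 and 5.52 on control and 4.88, 5.42 and 5.22 on estradiol arrays, again with no overlap. Its differences were -0.26 (SE 0.19) and -0.38 (SE 0.19), smaller than those of the main probe set in both fractions. With the mean of the probe sets Txnip stood at -0.56 in c-kit+ and -0.54 in CD44+ cells.

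Frat2 was the member in which the fractions looked least alike. In c-kit+ cells it read 7.35, 7.34 and 7.91 on control arrays and 6.34, 6.75 and 6.95 on estradiol arrays, a difference of -0.85 (SE 0.18, 1.81-fold lower) with no overlap. In CD44+ cells it read 6.97, 6.82 and 6.75 on control arrays and 6.54, 6.78 and 6.37 on estradiol arrays. There estradiol replicate 2 lay above control replicate 3, and the difference was -0.28 (SE 0.18, 1.22-fold lower). The effect in c-kit+ minus that in CD44+ cells was -0.57 (SE 0.26), built from the values that chose the gene and therefore not tested. In the order of groups c-kit+ control stood above all others without overlap, as it did for Txnip and Ttc30a1, and the neighbours below it (CD44+ control, c-kit+ estradiol and CD44+ estradiol) overlapped in turn. Frat1, the close relative that binds GSK-3 as well, did not pass in either fraction (log2 -0.07, adjusted p = 0.999, in c-kit+ and -0.31, adjusted p = 0.905, in CD44+ cells, by limma).

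Ttc30a1 read 5.45, 5.44 and 5.33 in c-kit+ control and 4.85, 4.93 and 5.02 in c-kit+ estradiol arrays. In CD44+ cells the control arrays read 5.31, 5.11 and 5.08 and the estradiol arrays 4.66, 4.69 and 4.39. The 4 groups separated completely, from c-kit+ control through CD44+ control and c-kit+ estradiol to CD44+ estradiol, with no overlap between any neighbours in this order. The differences were -0.48 (SE 0.11, 1.39-fold lower) in c-kit+ and -0.59 (SE 0.11) in CD44+ cells. CD44+ estradiol replicate 3, at 4.39, lay inside the Y-linked background range, which ends at 4.54, and the other arrays of that group just above it, so no fold is given for CD44+ cells. Ttc30b, its near relative in the same complex, had -0.46 (SE 0.14, adjusted p = 0.562) in c-kit+ and -0.09 (SE 0.14, adjusted p = 0.956) in CD44+ cells by limma and did not pass.

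**Figure D1:**
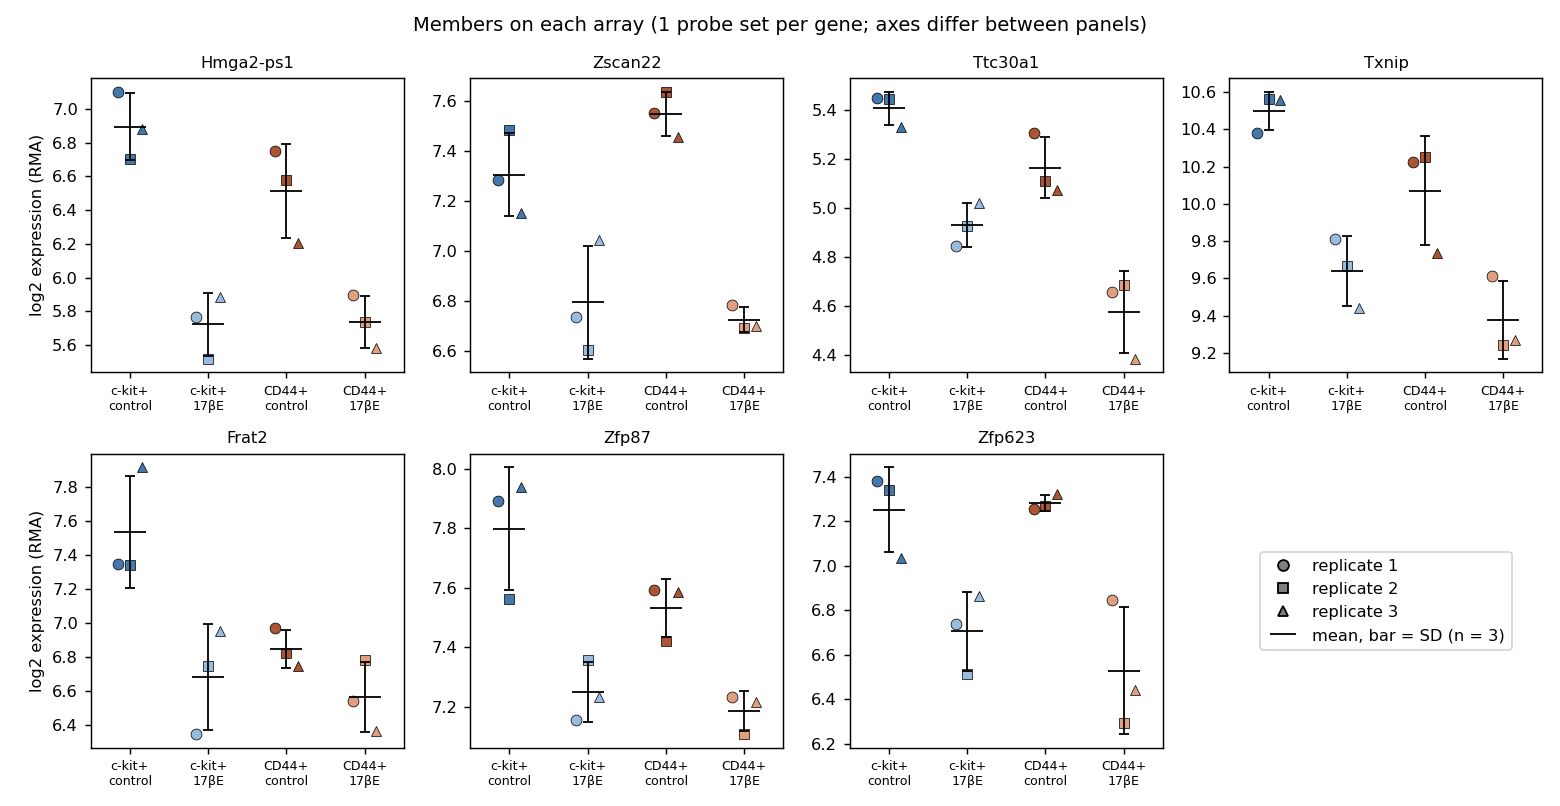
Log2 expression of each member (vertical axis, RMA values, 1 probe set per gene) on the 3 arrays of each group (horizontal axis); symbols give the replicate number and black bars the mean and SD. Estradiol arrays lie below control arrays of the same fraction in all panels, apart from Frat2 in CD44+ cells, where 6.78 with estradiol exceeds 6.75 in control.

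The 3 zinc finger genes each showed the larger difference in the fraction where they ranked higher by p among lower genes. That was CD44+ cells for Zscan22 and Zfp623 and c-kit+ cells for Zfp87. Those ranks chose the genes, so nothing is read from which fraction had the larger value. Zscan22 read 7.28, 7.48 and 7.15 in c-kit+ control and 6.74, 6.61 and 7.04 in c-kit+ estradiol arrays. In CD44+ cells it read 7.55, 7.63 and 7.46 on control and 6.79, 6.69 and 6.70 on estradiol arrays, so the gap between the groups was wider there. The differences were -0.51 (SE 0.12, 1.42-fold lower) in c-kit+ and -0.82 (SE 0.12, 1.77-fold lower) in CD44+ cells. Its second probe set read between 5.85 and 6.15 in c-kit+ control and between 5.66 and 5.86 in c-kit+ estradiol arrays, which overlapped. In CD44+ cells that probe set ran from 6.07 to 6.25 on control and from 5.61 to 5.94 on estradiol arrays, with no overlap. It gave -0.25 (SE 0.12) in c-kit+ and -0.41 (SE 0.12) in CD44+ cells, smaller than the main probe set and in the same direction.

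Zfp623 read 7.38, 7.34 and 7.03 in c-kit+ control and 6.74, 6.51 and 6.86 in c-kit+ estradiol arrays. In CD44+ cells the control arrays were tightly grouped at 7.25, 7.27 and 7.32 and the estradiol arrays read 6.84, 6.29 and 6.44. This gave -0.55 (SE 0.15, 1.46-fold lower) in c-kit+ and -0.75 (SE 0.15, 1.68-fold lower) in CD44+ cells. For Zscan22 and Zfp623 alike the control groups of the 2 fractions overlapped, the estradiol groups overlapped, and the gap lay between control and estradiol.

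Zfp87 read 7.89, 7.56 and 7.94 in c-kit+ control and 7.16, 7.36 and 7.23 in c-kit+ estradiol arrays. In CD44+ cells it read 7.59, 7.42 and 7.58 on control and 7.23, 7.11 and 7.21 on estradiol arrays. The differences were -0.55 (SE 0.12, 1.46-fold lower) in c-kit+ and -0.35 (SE 0.12, 1.27-fold lower) in CD44+ cells. No array of an estradiol group reached a control array of its fraction.

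Hmga2-ps1 had the widest gap of the 7 in c-kit+ cells. It read 7.10, 6.70 and 6.88 on c-kit+ control and 5.77, 5.52 and 5.89 on c-kit+ estradiol arrays, a difference of -1.17 (SE 0.16, 2.25-fold lower). In CD44+ cells it read 6.75, 6.58 and 6.21 on control and 5.89, 5.73 and 5.58 on estradiol arrays, a difference of -0.78 (SE 0.16, 1.71-fold lower). The estradiol groups of both fractions met at nearly the same mean, 5.72 and 5.74, while the control groups stood at 6.89 and 6.51 and overlapped.

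The parent gene Hmga2 differed between the fractions and was not called with estradiol. Its probe set of highest mean read 7.09, 7.36 and 6.13 in c-kit+ control, 7.07, 6.78 and 6.86 in c-kit+ estradiol, 8.94, 8.33 and 8.82 in CD44+ control and 9.34, 8.46 and 8.46 in CD44+ estradiol arrays. It was higher in CD44+ than in c-kit+ cells, by a log2 difference of c-kit+ minus CD44+ of -1.84 (SE 0.21, 3.59-fold, adjusted p = 0.000115 by limma), and 3 of its 4 probe sets passed in that direction with every probe set tested. The fourth lay between 3.32 and 3.72, within background. With estradiol Hmga2 had 0.04 (SE 0.30, adjusted p = 0.999) in c-kit+ and 0.06 (SE 0.30, adjusted p = 0.988) in CD44+ cells, values whose sign changed when single arrays were left out. The probe set of the pseudogene thus differed in both respects from the 3 Hmga2 probe sets that passed between the fractions. Whether its probes also pick up other transcripts was not tested.

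**Figure D2:**
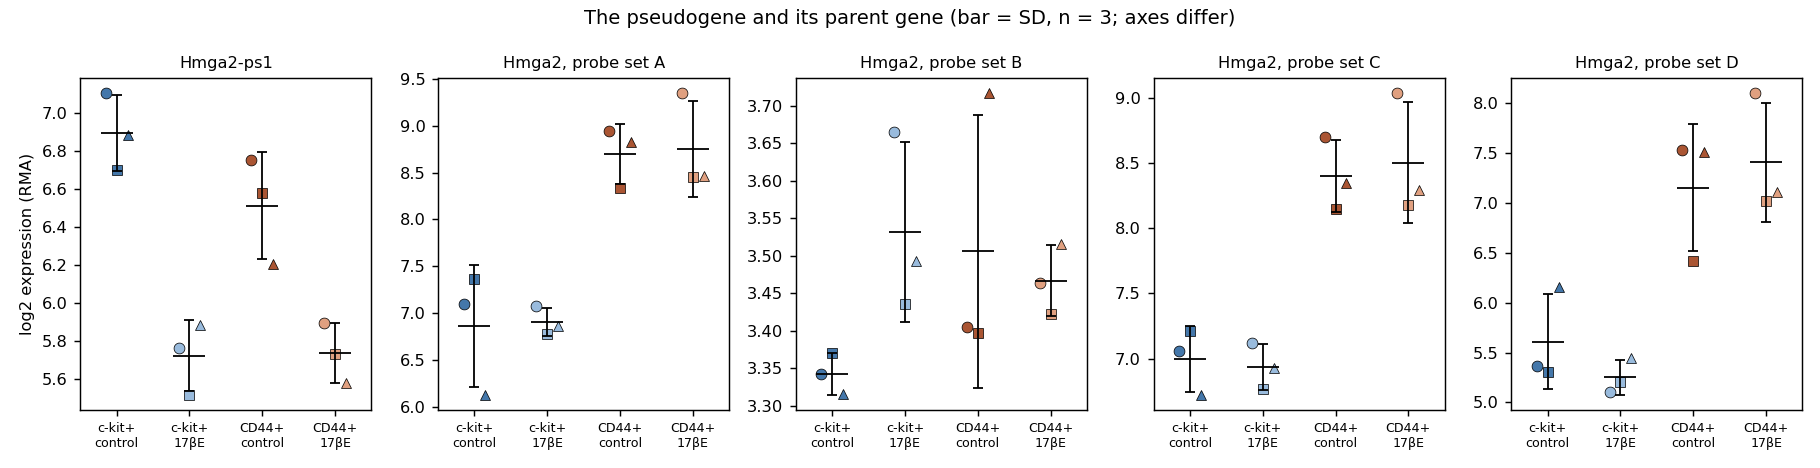
Log2 expression (vertical axis, RMA values) of Hmga2-ps1 and of the 4 Hmga2 probe sets A to D on each array of the 4 groups (horizontal axis), with the mean and SD in black. The pseudogene is lower on estradiol arrays of both fractions, while Hmga2 probe sets A, C and D are higher in CD44+ cells and probe set B stays between 3.32 and 3.72.

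By limma 0.0055% of all genes passed as lower with estradiol in c-kit+ and 0.011% in CD44+ cells. All 7 members lay without overlap below control in c-kit+ cells, where 2.47% of all genes do, 6 of 7 did in CD44+ cells, where 5.92% do, and 6 did in both fractions, where 0.319% do. These contrasts chose the members, so nothing is read from these counts. Across all genes the median difference was 0.02 in c-kit+ and 0.01 in CD44+ cells, and the members' medians were -0.55 and -0.69. Among genes lower with estradiol, ranked by p in c-kit+ cells, Hmga2-ps1, Txnip, Zfp87 and Frat2 held the first 4 places, and Ralgps2 (log2 -0.54, SE 0.13) followed at 5 and Zfp472 (-0.97, SE 0.23) at 7. In CD44+ cells Zscan22, Ttc30a1, Zfp623 and Hmga2-ps1 held the first 4 places, and Zfp574 (-0.53, SE 0.11) and Dph2 (-0.52, SE 0.12) came at 5 and 6. Members of the other fraction's set stood lower: Zfp87 was at 65 and Frat2 at 1037 in CD44+ cells, and Zfp623 at 24 in c-kit+ cells.

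**Figure D3:**
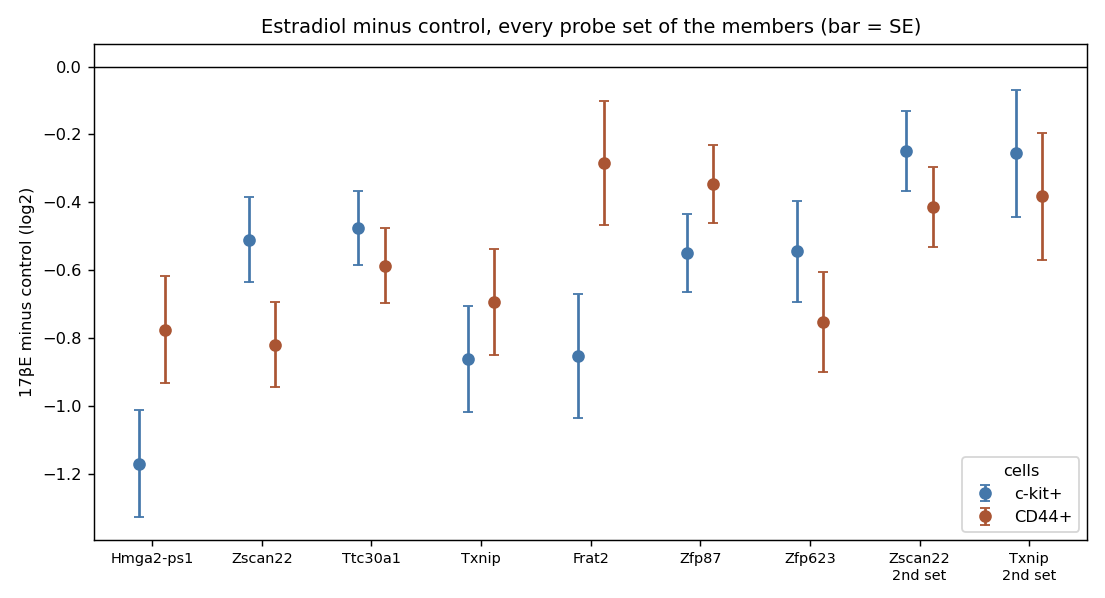
Estradiol minus control on the log2 scale (vertical axis) for the 9 probe sets of the 7 members (horizontal axis) in c-kit+ and CD44+ cells; points are differences of group means and bars the moderated SE. All 18 points lie below 0, from -1.17 for Hmga2-ps1 in c-kit+ cells to -0.25 for the second Zscan22 probe set in c-kit+ cells.

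Similarity between genes was measured as the root mean square difference of their values over the 12 arrays, after each gene was centred on its own mean. The estradiol differences that chose the members enter this measure, so nothing is read from how alike members are. The closest pair of members was Zscan22 and Zfp623, at 0.15, and each was the nearest of all genes to the other. For Txnip and Hmga2-ps1 the nearest gene was the same one, Rbak, which encodes a zinc finger partner of the retinoblastoma protein, at 0.22 from both (log2 with estradiol -0.70 in c-kit+ and -0.56 in CD44+ cells). Txnip was also second nearest to Hmga2-ps1, at 0.23. Frat2 lay nearest to Zfp40, at 0.17 (log2 -0.88 and -0.44), then Cep295 and Zfp946. Zfp87 lay nearest to Zfp729b, at 0.14, and then to Rpusd2 and Cbx8, and Ttc30a1 to 1700066M21Rik, at 0.11, and then to Nanp and Abcd2. The next genes after Zfp623 for Zscan22 were Zfp691 and Ftx, and after Zscan22 for Zfp623 they were Zfp74 and Zfp574. The least alike pair of members was Zscan22 with Frat2, at 0.41.

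The members' neighbours on the chromosome, taken in the gene order of GRCm38.p6, gave no called gene with estradiol. Zfp87 sits in a row of zinc finger genes, and those on either side had values below 0 as well: Zfp58 -0.21 and -0.09, Zfp874b -0.46 and -0.02, Zfp748 -0.82 and -0.62, and Zfp729b -0.37 and -0.39 in c-kit+ and CD44+ cells. Of all other measured genes named Zfp, Zscan or Zkscan with a number, 64.5% in c-kit+ and 68.8% in CD44+ cells lay below 0. Zfp128 and Zfp110, before Zscan22, had -0.07 and -0.20 in c-kit+ and -0.31 and -0.30 in CD44+ cells. Zfp707, next to Zfp623, had 0.29 in c-kit+ and -0.19 in CD44+ cells. Whether a probe set of a zinc finger gene also reads its neighbours was not tested. Frat2 lies next to Frat1, and Ttc30a1 next to Ttc30a2 (log2 -0.12 in c-kit+ and 0.07 in CD44+ cells) and Ttc30b. Sdccag8, next to Hmga2-ps1, had 0.14 and 0.06, and Polr3gl, next to Txnip, had 0.03 and -0.08. By limma none of these neighbours passed in either fraction, where 0.181% of all genes did in c-kit+ and 0.291% in CD44+ cells.

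Whether the members differed between the fractions was tested on the mean of c-kit+ minus CD44+ over control and estradiol cultures. This mean does not depend on either estradiol difference, but the test shares each gene's estimate of spread with the estradiol comparisons. Among lower genes the members have the smallest p there, so their spread may be estimated too low and their p here too small. By limma 1 of the 7 passed, where 6.11% of all 18193 genes did. Of those genes 404 were higher (2.22%) and 708 lower (3.89%) in c-kit+ cells, or 553 and 628 when arrays were centred on their medians. Ttc30a1 was higher in c-kit+ cells by 0.30 (SE 0.08, 6 arrays against 6, adjusted p = 0.0385). Its fractions did not overlap in either culture. The CD44+ estradiol arrays lay in or just above background, so no fold is given for this call. That call was held in 10 of 22 alternatives. With 1 array left out it remained without c-kit+ control replicate 3, CD44+ control replicate 1 or CD44+ estradiol replicate 2, and was lost without each of the other 9 arrays (adjusted p from 0.0526 to 0.103), and over all 22 its adjusted p ran from 0.00699 to 0.528. It was also lost in control cultures alone (0.24, adjusted p = 0.528) and in estradiol cultures alone (0.35, adjusted p = 0.168), by limma on those arrays.

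Frat2 had 0.40 (SE 0.13, adjusted p = 0.0975) and Txnip 0.35 (SE 0.11, adjusted p = 0.096), and neither passed by limma. Txnip had -0.11 (SE 0.13) on its second probe set, the opposite sign, and 0.12 with the mean of both. Frat2 did pass with array weights (adjusted p = 0.0425) and without c-kit+ estradiol replicate 1 (adjusted p = 0.0436), and over its 23 alternatives the adjusted p ran up to 0.849. In control cultures alone Frat2 had 0.69 (SE 0.17) and in estradiol cultures alone 0.12 (SE 0.16). Hmga2-ps1 had 0.18 (SE 0.11, adjusted p = 0.461), Zfp87 0.16 (SE 0.08, adjusted p = 0.332), Zfp623 0.07 (SE 0.1, adjusted p = 0.812) and Zscan22 -0.09 (SE 0.09, adjusted p = 0.717) by limma. Zscan22 and Zfp623 thus had the smallest values, and those of Hmga2-ps1, Zscan22 and Zfp623 took opposite signs in control and estradiol cultures. The change of a member's value between cultures is its difference of estradiol effects. That is built from the values that chose the members, so nothing is read from it.

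RNA quality moved with the fractions. The 3′ minus 5′ log2 signal of the Actb control probe sets ran from 2.34 to 4.68 on c-kit+ and from 1.52 to 2.14 on CD44+ arrays, and that of Gapdh from 4.23 to 6.17 and from 2.83 to 4.31. With the Gapdh measure as a covariate Ttc30a1 had 0.28 (adjusted p = 0.405) and Txnip 0.03 by limma. The stromal and neutrophil marker lists given above also separate the fractions, and their part in these values was not tested. In such bulk samples a smaller share of cells that express a gene and less of its RNA per cell cannot be told apart.

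**Figure D4:**
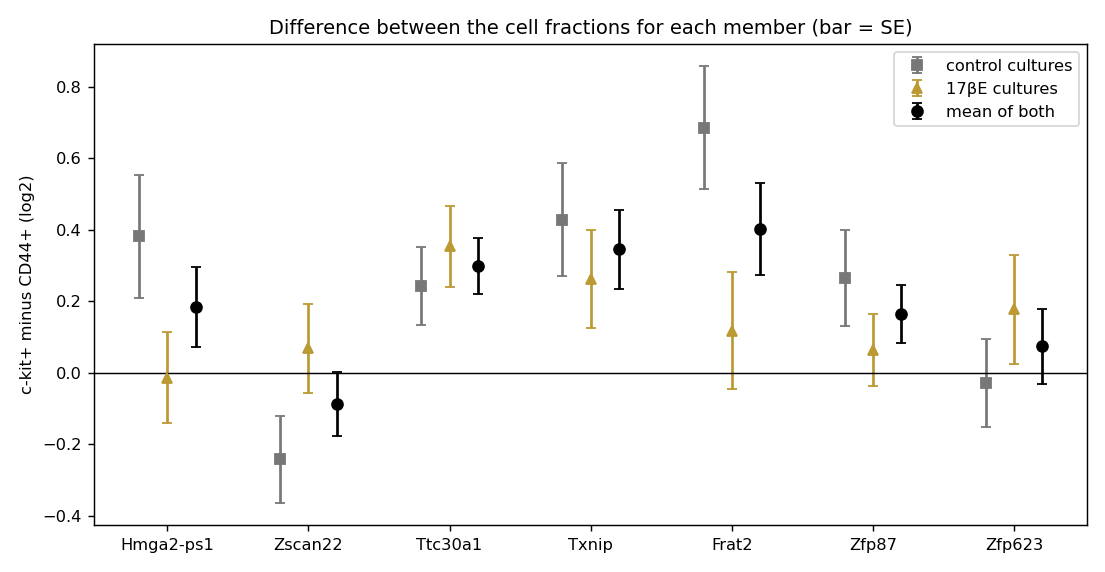
C-kit+ minus CD44+ on the log2 scale (vertical axis) for each member (horizontal axis) in control cultures, in estradiol cultures and as the mean of both; bars are the moderated SE. Ttc30a1 (0.24, 0.35 and 0.30) is above 0 in all 3, and Frat2 has 0.69 in control and 0.12 in estradiol cultures. The change between cultures is built from the values that chose the members, so nothing is read from it.

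Genes that work with the members were followed from lists that leave the members out. None of the 21 measured thioredoxin, α-arrestin and glucose-linked genes passed by limma with estradiol in either fraction, where 0.181% of all genes did in c-kit+ and 0.291% in CD44+ cells in the same test. In CD44+ cells, whose equal replicate numbers met the pairing criterion, 101 genes passed in place of 53 with a replicate block. Of the list, 5 and 5 genes (23.8% in each) had an unadjusted p under 0.05 in c-kit+ and CD44+ cells, as did 4.47% and 5.38% of all genes. Their medians were 0.11 and 0.13, against 0.02 and 0.01 for all genes, above 0 where Txnip was below. Arrdc4, an α-arrestin whose gene responds to glucose like Txnip, had 0.49 (SE 0.15, adjusted p = 0.534) in c-kit+ and 0.60 (SE 0.15, adjusted p = 0.187) in CD44+ cells. The other Arrdc4 probe set, at a similar level, had only 0.15 (SE 0.16) in c-kit+ and 0.07 (SE 0.16) in CD44+ cells. Nlrp3, the inflammasome sensor to which TXNIP protein can bind, had 0.52 (SE 0.11, adjusted p = 0.114) and 0.46 (SE 0.11, adjusted p = 0.158). Arrdc3, another α-arrestin, had -0.65 (SE 0.22, adjusted p = 0.712) and -0.42 (SE 0.22, adjusted p = 0.949). Txn1, the thioredoxin that Txnip restrains, had 0.003 (SE 0.13) and 0.19 (SE 0.13).

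Between the fractions 3 of these 21 genes passed, where 6.11% of all genes did. Arrdc3 was higher in c-kit+ cells (0.70, SE 0.16, adjusted p = 0.0158), and Ddit4, an inhibitor of mTOR signalling (-1.75, SE 0.39, adjusted p = 0.016), and Slc2a1, the glucose transporter GLUT1 (-0.38, SE 0.1, adjusted p = 0.0358), were lower by limma. In control cultures alone all 3 calls were lost (adjusted p = 0.324, 0.565 and 0.197). With the Gapdh covariate described above they were lost as well, with values of 0.36 for Arrdc3 (adjusted p = 0.603), -2.27 for Ddit4 (adjusted p = 0.0753) and -0.49 for Slc2a1 (adjusted p = 0.14), so those of Ddit4 and Slc2a1 were larger in size. Trend and robust moderation gave adjusted p = 0.0573 for Ddit4 and 0.0518 for Slc2a1, and Slc2a1 was also lost with median centring (adjusted p = 0.0712) and in estradiol cultures alone (adjusted p = 0.562). The call of Slc2a1 was also lost without any one of c-kit+ estradiol replicates 1, 2 and 3, CD44+ control replicates 1 and 2 and CD44+ estradiol replicates 2 and 3 (adjusted p from 0.0556 to 0.0963).

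None of the 29 Wnt and GSK-3 genes passed with estradiol in either fraction or between the fractions by limma, and their medians with estradiol were -0.01 and 0.01. An unadjusted p under 0.05 was found for 0, 1 and 1 of them in c-kit+ cells, in CD44+ cells and between the fractions, against 4.47%, 5.38% and 17.3% of all genes. Tcf7l1, a transcription factor of the pathway, had -0.32 (adjusted p = 0.0699) between the fractions and passed in 4 of 22 alternatives: with the mean of its probe sets (-0.84, adjusted p = 0.00111), array weights (adjusted p = 0.0261), the replicate block (adjusted p = 0.027) and without c-kit+ estradiol replicate 3 (adjusted p = 0.0407). Frat1 passed in CD44+ cells with array weights (-0.30, adjusted p = 0.0458). The lowest p in CD44+ cells was that of Frat1, and in c-kit+ cells that of Rnf43 (log2 -0.11, adjusted p = 0.999 by limma). None of the 29 intraflagellar transport genes passed with estradiol (2 and 0 had an unadjusted p under 0.05 in c-kit+ and CD44+ cells, 6.9% and 0% of the list against the shares of all genes given above), with medians of 0.01 and 0.05, and Ttc30b had the lowest p in c-kit+ cells. Between the fractions 8 of the 29 had an unadjusted p under 0.05 (27.6% against 17.3% of all genes), and 1 of them, Wdr35, passed (6.11% of all genes did) and was lower in c-kit+ cells (-0.48, SE 0.13, adjusted p = 0.038). That call was held in 9 of 22 alternatives, and of the 12 arrays it could spare c-kit+ control replicate 3, CD44+ control replicate 2 or CD44+ estradiol replicate 2 (adjusted p from 0.0533 to 0.106 without each of the others). Of the 6 genes of the HMGA and let-7 axis none passed with estradiol (0 and 0 had an unadjusted p under 0.05 in c-kit+ and CD44+ cells), and Hmga2 was the 1 that differed between the fractions, in all 23 alternatives.

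For the 3 zinc finger members, all 346 other measured genes whose symbol is Zfp, Zscan or Zkscan with a number were followed. This set was drawn by symbol alone and is not the C2H2 family itself. None passed with estradiol by limma. In c-kit+ and CD44+ cells 55 and 42 had an unadjusted limma p under 0.05. These were 15.9% and 12.1% of the set, against 4.47% and 5.38% of all genes. Of all genes in the set 64.5% in c-kit+ and 68.8% in CD44+ cells had a value below 0, against 44.9% and 46.8% of all genes. The medians of the set were -0.07 and -0.09. The medians stayed below 0 in all 22 alternatives run for each fraction. The lowest p with estradiol belonged to Zfp472 in c-kit+ cells (log2 -0.97, SE 0.23, adjusted p = 0.238) and to Zfp574 in CD44+ cells (-0.53, SE 0.11, adjusted p = 0.0765). Zfp472 had -1.02 (SE 0.23, adjusted p = 0.126) in CD44+ cells. With the replicate block in CD44+ cells 4 genes of the set passed, Zfp472 (adjusted p = 0.0155) and Zfp574 (adjusted p = 0.0401) among them. Zfp472 also passed there without c-kit+ control replicate 3 (adjusted p = 0.0408), an array that bears on it through the shared estimate of spread. The range ran up to 0.81 in c-kit+ and 1.12 in CD44+ cells, so single genes of the set also lay above 0. Zfp275 was among them (0.46, SE 0.11, adjusted p = 0.261 by limma in c-kit+ cells). Between the fractions 9 of the 346 passed by limma, where 6.11% of all genes did, 5 higher and 4 lower in c-kit+ cells, led by Zfp90 (0.91, SE 0.12, adjusted p = 0.000428) and Zfp365 (-0.45, SE 0.08, adjusted p = 0.00222). The call of Zfp90 was lost with the Gapdh covariate (0.55, adjusted p = 0.0666) and in control cultures alone (adjusted p = 0.0876). That of Zfp365 was lost in control (adjusted p = 0.154) and in estradiol cultures (adjusted p = 0.0512) alone, and with the mean of its probe sets it had -0.25 and passed.

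**Figure D5:**
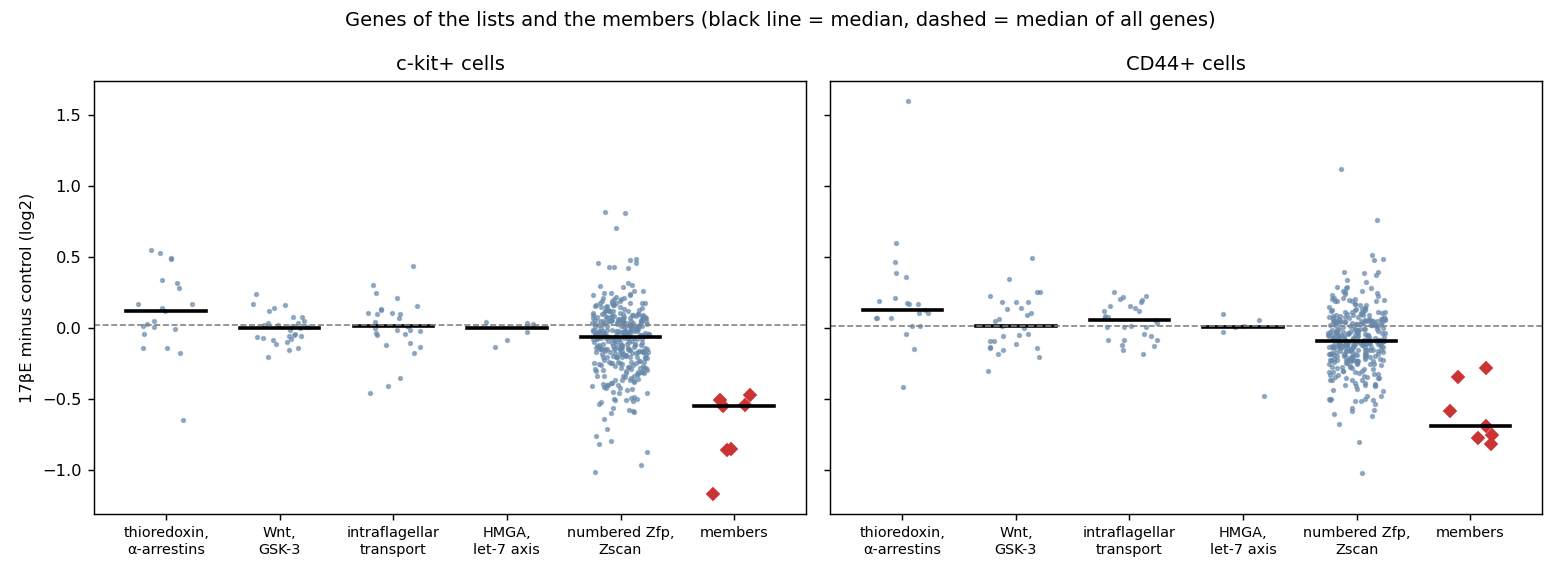
Estradiol minus control on the log2 scale (vertical axis) for the genes of the 5 lists and for the 7 members (horizontal axis), in c-kit+ cells on the left and CD44+ cells on the right; each point is a gene, black lines are medians and the dashed line is the median of all genes. The members, chosen as lower genes of smallest p, have medians of -0.55 and -0.69, and the numbered Zfp and Zscan genes have medians of -0.07 and -0.09.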

How the data were processed

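Expression was measured on 12 arrays, 3 in each of 4 groups taken from the sample titles. The authors deposited log2 values made with RMA, per the submitters' processing notes (background correction, quantile normalization and a summary per probe set), with no version among the sources used here. Values ran from 2.47 to 14.81, with array medians of 4.75 to 4.84. Of 45101 probe sets, 64 were controls, 34945 named 1 gene in the platform annotation, 932 had several names and 9160 had none here. Where a gene had several probe sets, that with the highest mean over the arrays stood for it, which gave 18193 genes with no filter on low values. The number of arrays limits the precision. RNA was amplified over successive labelling cycles, per the labels' protocols, which lowers 5′ signal.

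Tests used limma (version 3.58.1, R 4.3.3), with 1 mean per group over all 12 arrays, empirical Bayes without a trend and Benjamini-Hochberg adjustment over all genes at 0.05. The 3 comparisons were estradiol minus control in each fraction and c-kit+ minus CD44+ averaged over both cultures. Folds are powers of 2 of log2 differences. The method was tested on simulated data. Members and lists were chosen with earlier results of these data known. Genes named are the members, list genes that passed (up to 4 of smallest p, or else the 1 or 2 of smallest p), the 3 genes nearest to each member, the next 2 lower genes by p in each fraction, and fixed relatives and markers; chromosome neighbours were named as examples. Equal replicate numbers were to correlate above 0.1 in their deviations from group means: CD44+ control and estradiol arrays did (0.303, 0.368 and 0.322), as did estradiol arrays across fractions (0.447, 0.192 and 0.312), but c-kit+ arrays (0.345, 0.0916 and 0.253) and controls across fractions (0.175, 0.122 and -0.208) did not. The comparison between fractions rests on both cultures and was therefore not taken as paired. Alternatives were other summaries, normalizations, moderation and weights, a replicate block, subsets of arrays, each array left out and, added after the data were seen, the Gapdh 3′ to 5′ difference as a covariate. Figures were made with Python 3.11.15 and matplotlib 3.10.9. Promoters and gene order come from RefSeq.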

Additional observations from a re-analysis of the deposited data

How the results depend on the processing

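The values of all 7 members with estradiol stayed below 0 in both fractions under every alternative run (22 per gene, or 21 for Ttc30a1). The alternatives reuse the arrays that chose the members as low, so nothing is read from this. The mean of the probe sets brought Txnip to -0.56 in c-kit+ and Zscan22 to -0.62 in CD44+ cells. The count of genes that passed with estradiol was 33 in c-kit+ and 53 in CD44+ cells by limma. It was 55 and 1405 with array weights and 62 and 101 with the replicate block, and 2 with the c-kit+ arrays alone. Leaving out 1 array gave 10 to 45 and 22 to 97 genes, the lowest without c-kit+ estradiol replicate 2 and CD44+ estradiol replicate 3. Between the fractions 1112 genes passed. This count was 1729 with every probe set, 666 among genes at or above the median level, 2320 with array weights, 196 in control and 633 in estradiol cultures alone 508 with the Gapdh covariate and 1484 with the replicate block, and 825 to 1475 with 1 array left out. The replicate block also made Zfp472 pass in c-kit+ cells (adjusted p = 0.0265) and changed no call of a member between the fractions.

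Some values changed sign. Between the fractions Hmga2-ps1 had -0.013 in estradiol cultures alone and -0.0048 with the Gapdh covariate, Zscan22 had 0.069 in estradiol cultures alone, the second Txnip probe set gave -0.11 where the main one gave 0.35, and Zfp623 had -0.029 in control cultures alone and -0.059 with the covariate. With estradiol in c-kit+ cells Hmga2 had -0.047 with probe set means and -0.20 with array weights, and with 1 array left out it ran from -0.32 to 0.29 and Frat1 from -0.21 to 0.026. In CD44+ cells Ttc30b had 0.010 with array weights and Hmga2 had -0.063 after quantile normalization, and with 1 array left out Ttc30b ran from -0.15 to 0.020 and Hmga2 from -0.24 to 0.20. With array weights 5 thioredoxin and α-arrestin genes and 50 numbered Zfp and Zscan genes passed in CD44+ cells. The cause of these changes was not tested. Low signal limits Ttc30a1 and the second Txnip probe set.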
